A study of Mus musculus with 6 samples.

Results

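The 10 genes described here code for the main regulators of fat cell formation and for proteins that build or coat lipid droplets: Pparg, Cebpa, Fabp4, Plin1, Plin2, Plin3, Plin4, Plin5, Dgat1 and Dgat2. They are 10 of the 45616 genes and unnamed transcripts on the array, and were chosen by name, as every non-control probe whose accession mapped to one of these mouse symbols, on all 6 arrays (13 probes). To be tested, a gene had to exceed background clearly on both arrays of some group, and 9 of the 10 did, among 23058 genes in all.

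RNA came from tail tissue fibroblasts of C57BL/6 mice that were grown out of minced tails on collagen I. All cells, the untreated ones included, carried floxed alleles of LH2 (LH2F/F) and CAG-Cre, and the labels call the genotype of all 3 groups LH2 cKO. LH2 is lysyl hydroxylase 2, the product of Plod2, which modifies collagen before crosslinking, and CAG is a promoter active in most cell types. Cells labelled LH2 cKO no.1 were in medium with tamoxifen after 24 h of tamoxifen treatment, cells labelled LH2 cKO no.2 were in medium without tamoxifen after 24 h of the same treatment, and control cells were in medium without tamoxifen. Each group had 2 arrays. No group received tamoxifen with the gene intact, so against control the deletion, tamoxifen and time in culture cannot be told apart. Whether 2 arrays of 1 group stem from independent cultures is not stated in the labels, and the spread behind each p-value may be technical. The names under which the arrays were deposited give other times for some arrays than the labels do, so time may also differ within a group. The mice's ages are not stated.

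PPAR gamma, the product of Pparg, is a nuclear receptor that pairs with a retinoid X receptor and switches on fat cell genes, and C/EBP alpha, the product of Cebpa, is a transcription factor that works beside it and helps to keep it on. Among the genes they control are the fatty acid carrier FABP4 and the droplet coat protein perilipin 1. Lipid droplets also form in cells that are not fat cells: the DGAT enzymes make the triglyceride, and the perilipins cover the droplet and regulate access of lipases. In fibroblasts, perilipins 2 and 3 are the usual coat, while perilipin 1 belongs to fat cells.

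Pparg and Cebpa are the members called in no.1 cells against control whose change kept its direction under every processing tried, so the bases upstream of their starts are shown. Each sequence is the 250 bases before a RefSeq start (GRCm38.p6), on the plus strand, 5′ to 3′, in lower case with motif matches in capitals. The Pparg windows lie at chr6:115360894-115361143, chr6:115362099-115362348 and chr6:115421816-115422065, and the Cebpa window at chr7:35119043-35119292.
Pparg window 1: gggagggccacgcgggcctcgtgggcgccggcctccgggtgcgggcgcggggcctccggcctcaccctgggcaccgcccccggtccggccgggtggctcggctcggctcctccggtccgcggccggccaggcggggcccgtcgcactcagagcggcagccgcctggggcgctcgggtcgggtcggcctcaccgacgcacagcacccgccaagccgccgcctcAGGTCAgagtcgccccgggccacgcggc
Pparg window 2: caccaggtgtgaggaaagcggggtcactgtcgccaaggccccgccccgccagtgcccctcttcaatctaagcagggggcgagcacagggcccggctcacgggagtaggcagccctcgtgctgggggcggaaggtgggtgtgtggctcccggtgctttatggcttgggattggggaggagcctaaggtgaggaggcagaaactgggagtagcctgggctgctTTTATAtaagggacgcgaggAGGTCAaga
Pparg window 3: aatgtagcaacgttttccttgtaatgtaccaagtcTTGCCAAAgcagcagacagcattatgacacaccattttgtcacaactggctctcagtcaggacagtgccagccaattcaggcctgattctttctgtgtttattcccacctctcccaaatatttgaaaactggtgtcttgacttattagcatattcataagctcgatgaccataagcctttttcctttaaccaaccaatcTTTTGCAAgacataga
Cebpa window: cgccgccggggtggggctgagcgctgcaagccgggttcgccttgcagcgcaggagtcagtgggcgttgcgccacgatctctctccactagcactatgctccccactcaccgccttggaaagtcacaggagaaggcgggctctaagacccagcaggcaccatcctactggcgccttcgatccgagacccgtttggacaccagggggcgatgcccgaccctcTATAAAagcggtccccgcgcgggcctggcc

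The capitals mark AGGTCA, the single hexamer of nuclear receptor sites, the C/EBP core TTGCNNAA and the TATA motif TATAAA, each searched on both strands, and a match is only a description of the letters. Pparg window 1 held 1 hexamer, Pparg window 2 held a hexamer and a TATA match on the minus strand, and Pparg window 3 held 2 matches to the C/EBP core. The Cebpa window held a TATA match that began 30 bases before the start. Over the 10 windows found for 7 of the genes, the hexamer stood in 4, the C/EBP core in 2 and TATAAA in 2. Among 32851 mouse windows of the same length these letters stood in 14%, 9.56% and 12.4%. Neither the direct repeat AGGTCANAGGTCA, in 0.0335% of all windows, nor the E-box CACGTG, in 6.02%, stood in any of the 10 windows, which says only that these letters are not there. AGGTCA is part of the direct repeat. The other windows belonged to Plin1, Plin2, Plin3, Plin4 and Plin5.

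The scale of the arrays bears on every gene below. The 75th percentile of the processed signal, which is background-subtracted intensity, was 95.9 and 85.1 in no.1, 55.1 and 56.9 in no.2, and 34.2 and 33.7 in control. The share of probes well above background was 53.4% and 53.5% in no.1, 48.4% and 48.6% in no.2, and 45.7% and 44.2% in control. Scaled levels are log2 of the processed signal minus log2 of that array's 75th percentile, so a level of 0 is the 75th percentile. The spike-in controls, RNAs added in known amount, gave the other scale: relative to their 7 probes, the median of all genes lay 1.82 higher in no.1 than in control, 1.19 higher in no.2 than in control and 0.63 higher in no.1 than in no.2 (log2). After 75th percentile scaling those medians were -0.12, -0.10 and -0.011. The 2 control arrays lay closer together (robust SD of their difference over the tested genes 0.17 on the log2 scale) than the no.1 arrays (0.42) or the no.2 arrays (0.49). Plod2 itself, by its single probe, read 31.8 and 17.1 in no.1, 13.3 and 8.59 in no.2, and 42.1 and 34.9 in control. After 75th percentile scaling it was 2.13 lower in no.1 than in control (log2, SE 0.34, limma adjusted p = 0.00613). In no.2 it was 2.57 lower than in control (SE 0.34, adjusted p = 0.00767). Before scaling, no.1 lay much closer to control, and a Plod2 change relative to the spike-ins is not given here. Whether that probe lies within the deleted part is not stated.

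**Figure D1:**
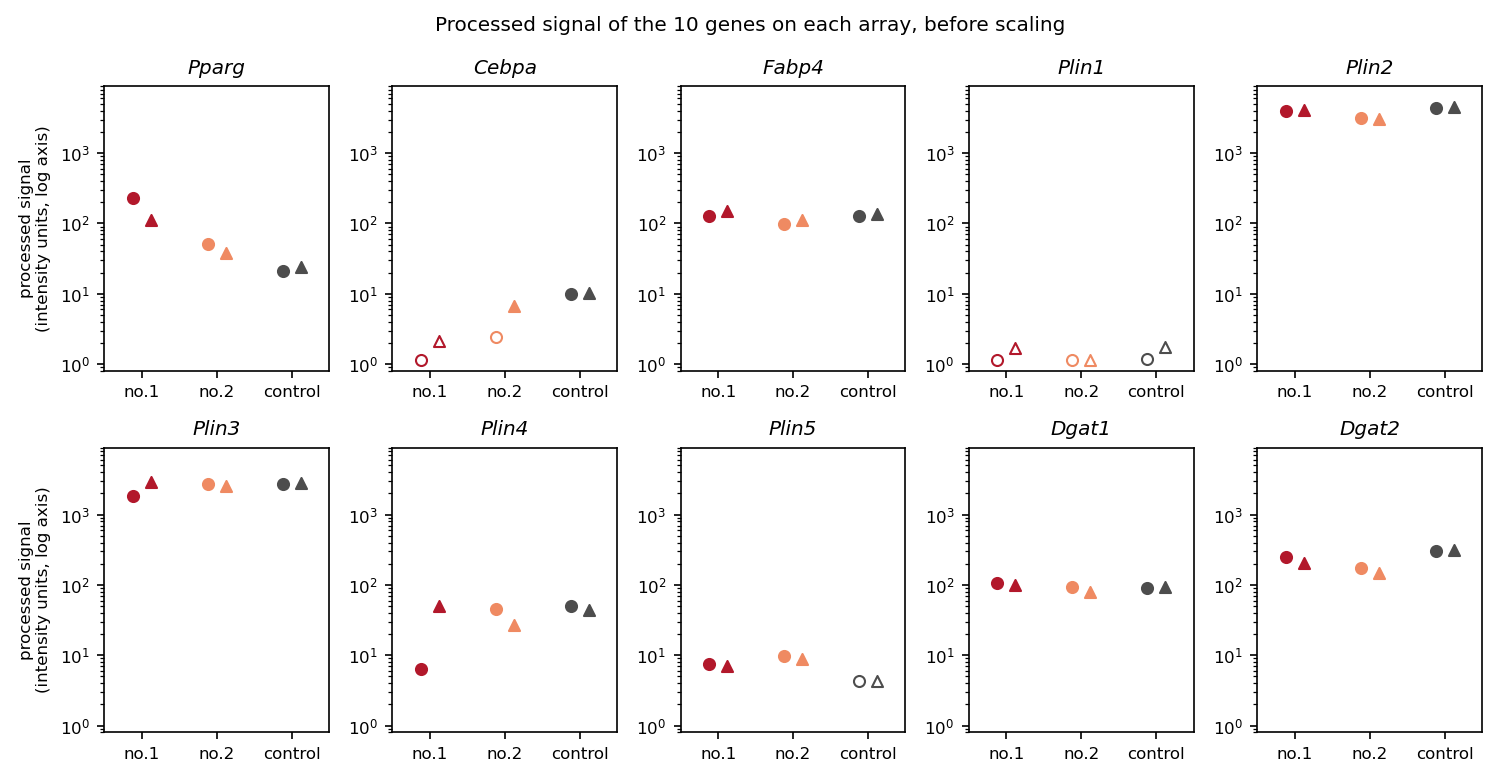
Processed signal (intensity units, log axis) of the 10 genes on each array before scaling, with no.1, no.2 and control from left to right, circles for replicate 1 and triangles for replicate 2. Open symbols are not well above background. Pparg lay at 112.2 and 231.1 in no.1 against 21.2 and 24.1 in control, while Dgat1 lay between 79.9 and 106.4 on all 6 arrays.

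Pparg was higher in cells kept in tamoxifen than in control cells. Its processed signal was 231.1 and 112.2 in no.1 cells, 50.9 and 37.7 in no.2 cells, and 21.2 and 24.1 in control cells, well above background on all 6 arrays. Both no.1 arrays lay above every other array, and the replicates of no.1 differed from each other more than those of control. The scaled level averaged 0.83 ± 0.61 in no.1, -0.35 ± 0.34 in no.2 and -0.59 ± 0.14 in control (SD, n = 2 each). Pparg rose in no.1 against control by 1.42 (log2 fold change, SE 0.34, limma adjusted p = 0.0183), and its direction was the same under all 19 alternatives, with values between 0.78 and 3.36. The call did not hold without no.1 replicate 1 (0.99, adjusted p = 0.0702), without control replicate 1 (adjusted p = 0.0802) or control replicate 2 (adjusted p = 0.0596), or with the control arrays averaged into 1 sample (adjusted p = 0.0708). Between no.1 and no.2 the log2 difference was 1.19 (SE 0.34, adjusted p = 0.282), with adjusted p between 0.0625 and 0.752 over the alternatives. Between no.2 and control it was 0.23 (SE 0.34, adjusted p = 0.620), the scaled values overlapped, and the value was -0.0066 without no.2 replicate 1 but 1.53 relative to the spike-ins (adjusted p = 0.00911).

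Cebpa went the other way. Its processed signal was 1.15 and 2.15 in no.1 cells, 2.46 and 6.81 in no.2 cells, and 9.99 and 10.2 in control cells. The probe was well above background on both control arrays and on 1 of the no.2 arrays, and on none of the no.1 arrays, so the no.1 level is only an upper limit. Cebpa fell in no.1 against control, after scaling to a level at least 5.57-fold lower. The fitted log2 difference was -4.10 (SE 0.54, adjusted p = 0.00394). It was called under all 18 alternatives that could be fitted, with values between -4.64 and -0.89. At -0.89 the fall is smaller than that bound. Relative to the spike-ins the fitted difference was -2.16 (adjusted p = 0.0176), a smaller fall than that bound. In no.2 against control the log2 fold change was -2.03 (SE 0.54, adjusted p = 0.0395). That call was lost in 9 of 18 alternatives, among them each removal of a control array (adjusted p = 0.110 and 0.123), the removal of no.2 replicate 1 (-1.32, adjusted p = 0.113) and spike-in scaling (-0.73, adjusted p = 0.339). Between no.1 and no.2 the difference was -2.07 (adjusted p = 0.282). Cebpa entered the test only through the control arrays, and a gene that enters so had to differ.

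Fabp4, the fatty acid carrier that PPAR gamma switches on in fat cells, did not follow Pparg. Its brighter probe read 129.5 and 151.4 in no.1 cells, 99.1 and 110.9 in no.2 cells, and 127.3 and 134.5 in control cells. Unscaled signals of no.1 and control thus overlapped, whereas the scaled levels of 0.63 ± 0.28 in no.1, 0.91 ± 0.083 in no.2 and 1.95 ± 0.070 in control (SD, n = 2 each) did not. Relative to the 75th percentile Fabp4 fell by 1.32 in no.1 against control (log2, SE 0.22, adjusted p = 0.00652) and by 1.04 in no.2 against control (SE 0.22, adjusted p = 0.0212), and relative to the spike-ins it turned to 0.62 (adjusted p = 0.107) and 0.25 (adjusted p = 0.497). The second Fabp4 probe gave log2 fold changes against control of -1.12 for no.1 (adjusted p = 0.0138) and -0.80 for no.2 (adjusted p = 0.0557) when each probe was tested on its own.

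Plin1, the perilipin of fat cells, had a processed signal between 1.13 and 1.77 over the 6 arrays and was well above background on none, so no comparison was made. Plin2, the perilipin that coats droplets in most cell types, read 3909 and 4111 in no.1 cells, 3129 and 3073 in no.2 cells, and 4363 and 4507 in control cells by its brighter probe. Control arrays were the highest and no.2 arrays the lowest before scaling. Plin2 fell by 1.56 in no.1 against control (log2, SE 0.20, adjusted p = 0.00355) and by 1.24 in no.2 against control (SE 0.20, adjusted p = 0.0110), while relative to the spike-ins the values were 0.38 and 0.056 (adjusted p = 0.241 and 0.867). Its dimmer probe disagreed with the brighter one before scaling, with 128.8 and 135.5 in no.1 cells, 95.7 and 106.4 in no.2 cells, and 90.1 and 102.4 in control cells. That probe was lower by a smaller amount after scaling, -0.95 for no.1 (adjusted p = 0.0133) and -0.65 for no.2 (adjusted p = 0.0614) against control.

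Plin3, a perilipin that moves between cytosol and new droplets, read 1835 and 2914 in no.1 cells, 2706 and 2578 in no.2 cells, and 2730 and 2788 in control cells. The first no.1 array was the lowest, and the second the highest, of all 6. Plin3 fell by 1.67 in no.1 against control after scaling (log2, SE 0.30, adjusted p = 0.00821) and stood at 0.27 relative to the spike-ins (adjusted p = 0.480). In no.2 against control the difference was -0.78 (adjusted p = 0.0973), with 0.51 relative to the spike-ins (adjusted p = 0.218).

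Plin4, a perilipin of fat cells and muscle that covers small droplets, depended on 1 array. Its signal was 6.32 and 50.5 in no.1 cells, 45.6 and 27.2 in no.2 cells, and 49.7 and 43.7 in control cells. The first no.1 array stood far below the other 5, and the second was the highest. The log2 difference of no.1 against control was -2.80 (SE 0.96, adjusted p = 0.0534), or -4.38 without no.1 replicate 2 (adjusted p = 0.00659) and -1.21 without no.1 replicate 1 (adjusted p = 0.0814). Between no.1 and no.2 it was -1.67 (adjusted p = 0.395), or -0.083 without no.1 replicate 1 and -3.26 without no.1 replicate 2. In no.2 against control it was -1.13 (SE 0.96, adjusted p = 0.393).

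Plin5, the perilipin of tissues that burn fat and the coding gene next to Plin4 on chromosome 17, was near background. Its signal was 7.45 and 7.01 in no.1 cells, 9.67 and 8.99 in no.2 cells, and 4.33 and 4.28 in control cells, well above background on all no.1 and no.2 arrays and on no control array. Both no.2 arrays lay highest. In no.2 against control the fitted difference was 0.39 (adjusted p = 0.153), which is not called. The bound after scaling was at least 1.24-fold higher, but it does not hold under all processing. Over 18 other settings the difference ranged from -0.36 to 1.69 and turned sign in 2. Plin5 also entered the test only through the no.1 and no.2 arrays. In no.1 against control the fit gave -0.66 (adjusted p = 0.0294), but the control level is only an upper limit, so neither a fold nor a direction can be given, and relative to the spike-ins the value was 1.27 (adjusted p = 0.00364). Between no.1 and no.2 the difference was -1.06 (SE 0.19, adjusted p = 0.282). The other Plin5 probe was well above background on no array.

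Dgat1 and Dgat2 code for 2 unrelated enzymes that both add the last fatty acid to diacylglycerol to make triglyceride. Dgat1 read 106.4 and 99.9 in no.1 cells, 92.6 and 79.9 in no.2 cells, and 91.4 and 94.6 in control cells, so that before scaling no.1 was the highest. Relative to the 75th percentile Dgat1 fell by 1.26 in no.1 against control (log2, SE 0.20, adjusted p = 0.00563) and by 0.83 in no.2 against control (SE 0.20, adjusted p = 0.0287), and relative to the spike-ins it was 0.67 higher in no.1 (adjusted p = 0.0420) and differed by 0.46 in no.2 (adjusted p = 0.146). Dgat2 read 251.1 and 205.7 in no.1 cells, 174.3 and 150.1 in no.2 cells, and 299.0 and 313.4 in control cells, and control was the highest also before scaling. Dgat2 fell by 1.84 in no.1 (SE 0.20, adjusted p = 0.00274) and by 1.64 in no.2 (SE 0.20, adjusted p = 0.00601) against control, the largest called falls among the members measured on all 6 arrays. Relative to the spike-ins Dgat2 stood at 0.097 for no.1 (adjusted p = 0.738) and at -0.35 for no.2 (adjusted p = 0.261).

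**Figure D2:**
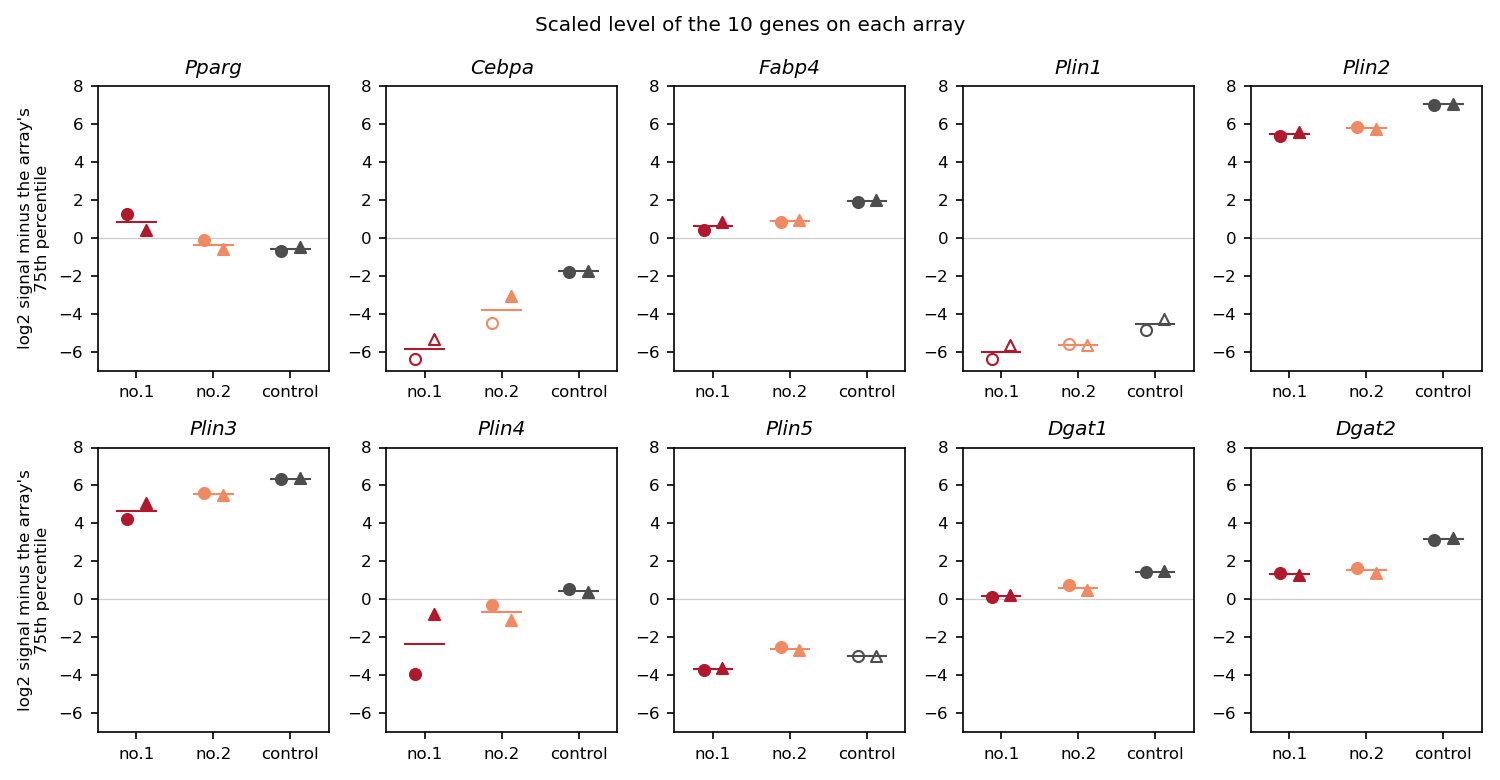
Scaled level (log2 processed signal minus log2 of the array's 75th percentile) of the 10 genes, with no.1, no.2 and control from left to right, circles for replicate 1, triangles for replicate 2 and lines for group means. Open symbols are not well above background. Pparg averaged 0.83 in no.1 against -0.59 in control, and Dgat2 averaged 1.33 in no.1 and 1.53 in no.2 against 3.17 in control.

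The comparison named in the series' design text, no.1 against no.2, called none of the 9 tested members, and 0% of all tested genes, by limma at an adjusted p under 0.05. At an unadjusted p under 0.05 the members Pparg, Cebpa, Plin3 and Plin5 passed, 4 of 9, where 16.6% of all tested genes (3823) did. The scaled values of no.1 lay wholly below those of no.2 for 7 members and wholly above for Pparg, where 47.9% of all tested genes had groups that did not overlap in either direction. The median log2 fold change of the members was -0.43, beside -0.011 for all genes, and relative to the spike-ins it was 0.21, beside 0.63 for all genes.

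Against control, 8 of the 9 tested members passed the threshold in no.1, where 47.8% of all tested genes did (21.4% higher and 26.4% lower). Of the 7 members well above background on both arrays of both groups, Pparg rose and 5 fell, Fabp4, Plin2, Plin3, Dgat1 and Dgat2. The other 2 were Cebpa, which entered the test only through the group where it is high, and Plin5, whose control level is only an upper limit, so that its direction is not set. In no.2, 5 of the 9 were called, all lower, where 28.3% of all tested genes were called (12.1% higher and 16.2% lower). They were Fabp4, Plin2, Dgat1 and Dgat2, measured on every array, and Cebpa, above background on 1 of the 2 no.2 arrays. The scaled values did not overlap with control for 9 of 9 tested members in no.1 and 8 of 9 in no.2, and for 81.5% and 74.5% of all tested genes, so this says little about the members. The members' median log2 fold change was -1.56 in no.1 and -1.04 in no.2. For all genes it was -0.12 and -0.10. Relative to the spike-ins, 3 members were called higher in no.1 (Pparg, Plin5 and Dgat1), where 82.3% of all tested genes were, and 1 lower (Cebpa), where 1.83% were (84.1% in either direction). In no.2, 2 were then called higher (Pparg and Plin5), where 65.5% of all tested genes were (2.29% lower, 67.8% in either direction). Plin5 entered the test only through the no.1 and no.2 arrays and Cebpa only through the control arrays. The members' medians were then 0.38 in no.1 and 0.25 in no.2, beside 1.82 and 1.19 for all genes. With the control arrays averaged into 1 sample, 6 members were called in no.1 against control, all lower, where 21% of all tested genes were called (9.8% higher and 11.2% lower), and 1 (Dgat2, lower) in no.2 against control, where 5.4% were (2.5% higher and 2.9% lower). The 2 comparisons share the control arrays.

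**Figure D3:**
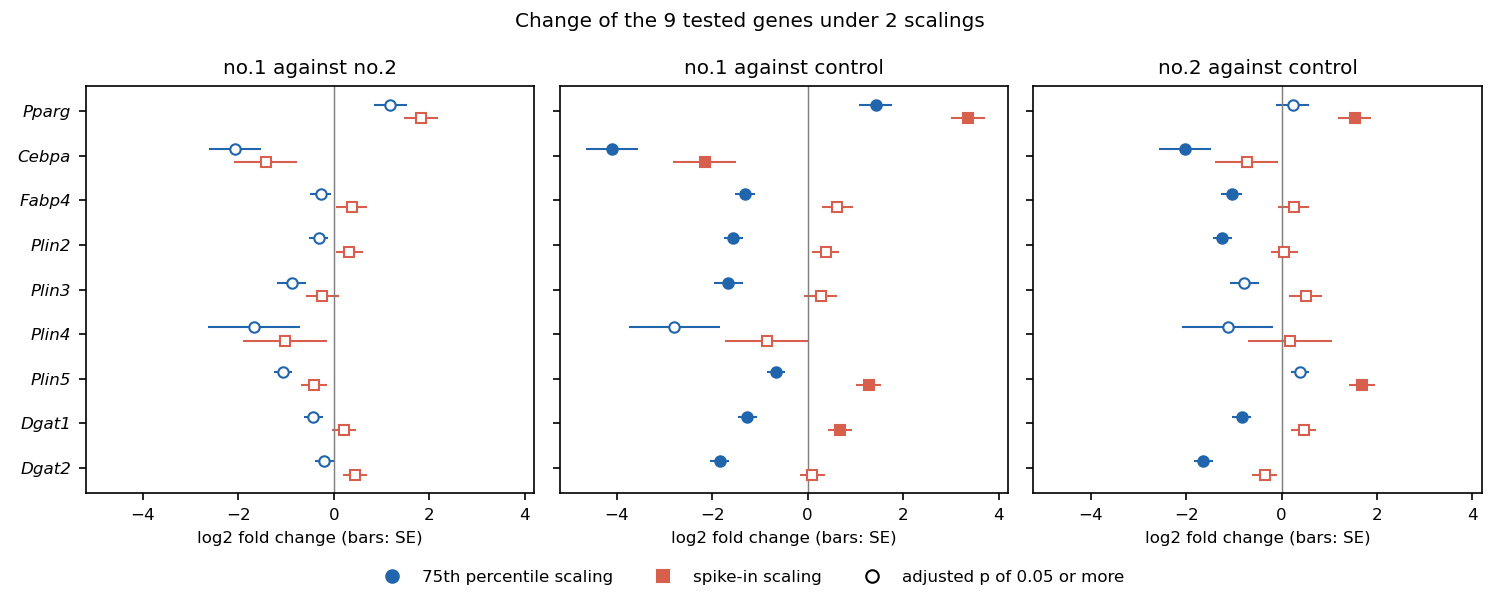
Log2 fold changes with SE (bars) of the 9 tested genes in each comparison, under 75th percentile scaling (circles) and spike-in scaling (squares). Open symbols have an adjusted p of 0.05 or more. In no.1 against control Dgat2 sits at -1.84 under the first scaling and at 0.097 under the second, while Pparg stays above 0 and Cebpa below 0 under both. Cebpa was not above background in no.1, nor Plin5 in control.

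A difference between members within an array does not depend on how arrays are scaled. Log2 Pparg minus log2 Plin2 was -4.64 ± 0.79 in no.1, -6.15 ± 0.29 in no.2 and -7.62 ± 0.096 in control (SD, n = 2 each). Log2 Fabp4 minus log2 Plin2 was -4.84 ± 0.11 in no.1, -4.89 ± 0.13 in no.2 and -5.08 ± 0.022 in control. Log2 Dgat1 minus log2 Plin2 was -5.28 ± 0.12 in no.1, -5.17 ± 0.13 in no.2 and -5.58 ± 0.0024 in control, and log2 Dgat2 minus log2 Plin2 was -4.14 ± 0.25 in no.1, -4.26 ± 0.13 in no.2 and -3.86 ± 0.015 in control. Relative to this Plin2 probe, the brighter one, Pparg shifted by far more than Fabp4, Dgat1 or Dgat2 did. The directions for Fabp4 and Dgat1 turn with the dimmer Plin2 probe. In no.1 against control that probe changed by -0.95 after scaling, less than Fabp4 (-1.32) and Dgat1 (-1.26). The brighter Plin2 probe changed by -1.56, more than both. Between probes these differences have no absolute meaning. Over the 6 arrays the centred profiles of Fabp4 and Plin2 lay 0.31 apart (Euclidean distance, log2), the closest pair of members. Among the 7 members measured on all 6 arrays, those of Pparg and Plin4 lay farthest apart (5.18), and Plin4 has 1 low array.

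Other genes that act in the pathway were read from 7 lists, and no list was tested as a set. The counts below stand beside 47.8% of all tested genes called in no.1 against control (21.4% higher and 26.4% lower). In no.2 against control that share was 28.3% (12.1% higher and 16.2% lower). Calls against control in these lists were fewer with the control arrays averaged into 1 sample, where 21% of all tested genes were called in no.1 and 5.4% in no.2. In no.1 there were then 2 rises and 3 falls among the adipogenic regulators and likewise among the inhibitors, 1 fall among the fat cell products, 4 rises in triglyceride synthesis, 1 rise and 4 falls in lipolysis, 1 rise and 2 falls among the droplet surface proteins, and 2 rises and 4 falls among the PPAR partners and targets. In no.2 there were 2 rises and 1 fall among the inhibitors, 1 rise in triglyceride synthesis, 1 rise and 1 fall in lipolysis, and 0 calls in the other 4 lists. Of the 18 regulators that promote fat cell formation, 16 were tested. In no.1 against control 4 rose and 7 fell, with a list median of -0.65 beside -0.12 for all genes, and in no.2 against control 2 rose and 4 fell, with a median of -0.20 beside -0.10. These counts include Ebf2 among the rises in no.1, above background only in no.1 and with no bound on its fold, and Prdm16 among the falls in both. Klf5, a factor that promotes fat cell formation, rose by 1.82 in no.1 (SE 0.26, adjusted p = 0.00455) and by 1.40 in no.2 (SE 0.26, adjusted p = 0.0157) against control. Klf5 signals were 331.7 and 197.4 in no.1, 127.3 and 110.8 in no.2, and 26.0 and 28.5 in control. Nr1h3, which codes for the oxysterol receptor LXR alpha, fell by 1.90 in no.1 (adjusted p = 0.00323) and by 0.87 in no.2 (adjusted p = 0.0358) against control, but relative to the spike-ins it stood at 0.038 and 0.42. Stat5a fell by 1.63 in no.1 (adjusted p = 0.00570) and by 1.14 in no.2 (adjusted p = 0.0245), with 0.31 and 0.15 relative to the spike-ins. Prdm16, a regulator of brown fat, entered the test only through the control arrays. It was at least 6.44-fold lower in no.1 than in control (adjusted p = 0.0134), with signals of 5.17 and 4.54 in no.1, 5.47 and 1.63 in no.2, and 15.8 and 9.10 in control. The no.1 call was lost relative to the spike-ins (-0.78, adjusted p = 0.147), without control replicate 1 and without either no.1 array. In no.2 it fell by 2.73 (adjusted p = 0.0229), above background on 1 of 2 arrays, and that call was lost with averaged controls and on leaving out any array but no.2 replicate 1. Fgf10 rose by 1.16 in no.1 (adjusted p = 0.00784) and by 0.77 in no.2 (adjusted p = 0.0396), and Creb1 rose by 1.11 in no.1 (adjusted p = 0.00860). The Fgf10 calls were lost in 2 other settings for no.1 and 6 for no.2, and the Creb1 call in 3.

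Among the 15 inhibitors of fat cell formation, all tested, 4 rose and 4 fell in no.1 against control (median 0.40), and 3 rose and 3 fell in no.2 against control (median 0.35). The GATA factors, which hold fat precursors back from differentiating, had the largest rises of this list. Gata3 read 1270 and 1005 in no.1, 514.0 and 708.9 in no.2, and 46.6 and 48.6 in control. No treated array came near the control arrays. Gata3 rose by 3.16 in no.1 (SE 0.22, adjusted p = 0.000981) and by 2.94 in no.2 (SE 0.22, adjusted p = 0.00188) against control. Gata2 rose by 2.20 in no.1 (adjusted p = 0.00269) and by 1.99 in no.2 (adjusted p = 0.00566). Klf2, which represses Pparg in fat precursors, read 187.8 and 157.7 in no.1, 119.2 and 110.6 in no.2, and 372.1 and 397.2 in control, so that it was lower in the treated cells also before scaling. Klf2 fell by 2.57 in no.1 (SE 0.19, adjusted p = 0.00108) and by 2.47 in no.2 (SE 0.19, adjusted p = 0.00196) against control. Relative to the spike-ins its values were -0.63 (adjusted p = 0.0624) and -1.17 (adjusted p = 0.00932). Ddit3, a stress-induced partner that blocks C/EBP factors, fell by 2.48 in no.1 (adjusted p = 0.00660) and by 1.55 in no.2 (adjusted p = 0.0387). Relative to the spike-ins Ddit3 stood at -0.54 and -0.26 (adjusted p = 0.316 and 0.641), and its no.2 call was lost in 9 of 12 other settings. Dlk1, a surface protein of fat precursors, fell by 1.62 in no.1 (adjusted p = 0.00697), with 0.32 relative to the spike-ins. Ncor1, a corepressor, rose by 1.06 in no.1 (adjusted p = 0.00803) and by 0.68 in no.2 (adjusted p = 0.0449) against control. Those Ncor1 calls were lost in 3 and 6 of 12 other settings. Sox9, a transcription factor best known from cartilage, fell by 1.82 in no.2 (adjusted p = 0.0383), with -0.52 relative to the spike-ins (adjusted p = 0.240). That call was lost in 7 of 12 other settings.

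Of 15 products of mature fat cells, 6 did not exceed background clearly on any array (Adipoq, Cfd, Cidec, Cd36, Ucp1 and Cidea), and 4 did so on each of the 6 arrays. Of the 6 tested, none rose and 3 fell in no.1 against control (median -1.05), and none rose and 2 fell in no.2 against control (median -0.54). Lep, the hormone leptin, was well above background on all arrays, with 37.0 and 30.3 in no.1, 26.4 and 23.7 in no.2, and 30.2 and 20.9 in control. It fell by 1.00 in no.1 against control (adjusted p = 0.0185), yet relative to the spike-ins it was 0.94 higher (adjusted p = 0.0214). Thrsp, which promotes fat synthesis, fell by 1.79 in no.1 (adjusted p = 0.00351) and by 1.35 in no.2 (adjusted p = 0.0121), with 0.15 and -0.058 relative to the spike-ins. Adig fell by 1.10 in no.1 (adjusted p = 0.0201), with 0.84 relative to the spike-ins. Adrb3, the beta-3 adrenergic receptor, was above background on no no.2 array and at least 2.27-fold lower in no.2 than in control (adjusted p = 0.0237), a call lost relative to the spike-ins (-0.77, adjusted p = 0.0821), without either control array and with the control arrays averaged. Lpl, the lipase that frees fatty acids from lipoproteins, stood apart on 1 array, with 13.5 and 13.6 in no.1, 9.35 and 46.2 in no.2, and 10.5 and 9.28 in control.

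Triglyceride synthesis held more rises than falls after scaling, unlike Dgat1 and Dgat2. Of 19 genes 18 were tested, and 7 rose and 2 fell in no.1 against control (median 0.24), where 21.4% of all tested genes rose and 26.4% fell. In no.2 against control 4 rose and 2 fell (median 0.29), where 12.1% of all tested genes rose and 16.2% fell. Among genes well above background on both arrays of both groups, 5 rose and 2 fell in no.1. In no.2 it was 2 and 2, so the excess of rises there rests on genes near background in control. Whether this list differs from other genes was not tested. Mogat2, an acyltransferase of the Dgat2 family and the coding gene next to Dgat2 on chromosome 7, read 672.8 and 397.4 in no.1, 364.2 and 169.3 in no.2, and 27.1 and 30.3 in control. All 4 treated arrays lay far above both control arrays. Mogat2 rose by 2.76 in no.1 (SE 0.42, adjusted p = 0.00520) and by 2.39 in no.2 (SE 0.42, adjusted p = 0.0137) against control, while its neighbour Dgat2 fell in both after scaling and was not called relative to the spike-ins. Acsl3, which activates fatty acids at forming droplets, rose by 2.39 in no.1 (adjusted p = 0.00469) and by 2.52 in no.2 (adjusted p = 0.00798) against control, and was well above background on 1 of the 2 control arrays. Gk, glycerol kinase, rose by 2.90 in no.1 (adjusted p = 0.00574), with signals of 81.9 and 49.3 in no.1, 19.6 and 14.1 in no.2, and 2.08 and 4.89 in control, where 1 of the 2 arrays was well above background. Agpat2 fell by 0.84 and Gpat3 by 0.66 in no.1 (adjusted p = 0.0303 and 0.0438), but relative to the spike-ins both were higher, by 1.10 and 1.28. Those no.1 calls were lost in 9 and 6 other settings. In no.2, Lpin2 rose by 0.78 (adjusted p = 0.0312), and Gpat3 fell by 1.00 and Acsl4 by 0.77 (adjusted p = 0.0214 and 0.0359), which stood at 0.29 and 0.53 relative to the spike-ins. The no.2 calls of Lpin2, Gpat3 and Acsl4 were lost in 4, 6 and 8 other settings.

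Of the 14 genes of lipolysis and its control, 11 were tested. In no.1 against control 1 rose and 5 fell (median -0.70), and in no.2 against control 1 rose and 4 fell (median -0.084). Of the falls, 3 in no.1 and 3 in no.2 were of genes well above background on both arrays of both groups. Another fall in no.1 was of a gene that entered the test only through the control arrays, where it is high. The riser in both was Prkar2b, a regulatory subunit of protein kinase A, with 3644 and 1657 in no.1, 872.3 and 794.1 in no.2, and 102.8 and 92.0 in control. It rose by 3.25 in no.1 (SE 0.34, adjusted p = 0.00244) and by 2.38 in no.2 (SE 0.34, adjusted p = 0.00873). Mgll, which splits the last fatty acid from monoglyceride, read 16.3 and 7.71 in no.1, 4.63 and 3.96 in no.2, and 24.3 and 23.3 in control. Mgll fell by 2.50 in no.1 (adjusted p = 0.00379), with -0.56 relative to the spike-ins (adjusted p = 0.186). After scaling, Mgll was at least 8.32-fold lower in no.2 than in control (adjusted p = 0.00391). Relative to the spike-ins its log2 difference in no.2 was -1.90 (adjusted p = 0.00508), a smaller fall than that bound. Abhd5, the activator of the main triglyceride lipase, fell by 1.21 in no.1 (adjusted p = 0.00552), but relative to the spike-ins it was 0.73 higher (adjusted p = 0.0464). In no.2 Abhd5 fell by 0.92 (adjusted p = 0.0198), with 0.38 relative to the spike-ins. G0s2, an inhibitor of that lipase, fell by 2.46 in no.1 (adjusted p = 0.00448), where it was above background on 1 of 2 arrays, and Hilpda, another inhibitor, fell by 1.58 in no.2 (adjusted p = 0.00915). Relative to the spike-ins these were -0.52 for G0s2 and -0.29 for Hilpda, neither called (adjusted p = 0.173 and 0.319).

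Of 15 genes for droplet formation and surface proteins, 13 were tested, and 2 rose and 3 fell in no.1 against control (median -0.12), and none rose and 3 fell in no.2 against control (median -0.097). The same 3 fell in both: Tmem159, Bscl2 (seipin) and Fitm2, all needed for normal droplet formation. Tmem159 fell by 1.47 in no.1 (adjusted p = 0.00386) and by 1.13 in no.2 (adjusted p = 0.0134) against control, and relative to the spike-ins it stood at 0.47 and 0.17. Bscl2 fell by 1.23 in no.1 (adjusted p = 0.00750) and by 1.07 in no.2 (adjusted p = 0.0197), with 0.71 and 0.23 relative to the spike-ins. Fitm2 fell by 1.27 in no.1 (adjusted p = 0.0170) and by 1.33 in no.2 (adjusted p = 0.0248), with 0.67 and -0.036 relative to the spike-ins. Spast rose by 1.50 (adjusted p = 0.00880) and Ldah by 0.63 (adjusted p = 0.0475) in no.1 against control.

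Of 28 PPAR partners and targets, 24 were tested, and 5 rose and 8 fell in no.1 against control (median -0.37), and 3 rose and 3 fell in no.2 against control (median -0.19). Among the partners, the coactivator genes Med1 and Ncoa1 rose by 1.29 and 1.07 in no.1 (adjusted p = 0.00595 and 0.0153). In no.2 they rose by 0.86 and 1.08 (adjusted p = 0.0300 and 0.0248), calls lost in 5 and 4 other settings. The Ncoa1 call in no.1 was lost in 4. Angptl4, a PPAR target that inhibits lipoprotein lipase, read 2861 and 3075 in no.1, 3202 and 2283 in no.2, and 4396 and 4630 in control. Angptl4 fell by 2.02 in no.1 (adjusted p = 0.00351) and by 1.46 in no.2 (adjusted p = 0.0135) against control, with -0.079 and -0.17 relative to the spike-ins, neither called. Fgf21, a hormone and PPAR alpha target, read 1.38 and 6.12 in no.1, 8.26 and 23.0 in no.2, and 47.3 and 44.5 in control. It was lower on every treated array than on either control array, and fell by 5.39 in no.1 (SE 0.80, adjusted p = 0.00510), where it was well above background on 1 of 2 arrays, and still by 3.45 relative to the spike-ins (adjusted p = 0.00748). Of the enzymes that burn fatty acids, Acadm rose by 1.23 in no.1 and 0.95 in no.2 (adjusted p = 0.00510 and 0.0174), and Acadvl fell by 1.62 and 1.29 (adjusted p = 0.00513 and 0.0163), with 0.32 and -2.6e-04 relative to the spike-ins. Acot2 fell by 1.24 in no.2 (adjusted p = 0.0414), with 0.055 relative to the spike-ins, and that call was lost in 8 other settings.

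No gene of the 7 lists was called between no.1 and no.2, where 0% of all tested genes were. The list genes of lowest p there were Fgf21 at -2.93, Adig at -0.74, Sirt1 at 0.56, Ebf2 at 1.71, Vps13c at 0.44, G0s2 at -1.08 and Acsl4 at 0.73, with adjusted p between 0.282 and 0.322, and Ebf2 and Vps13c turned sign with normexp background correction. Across 4 scalings, the value table, normexp, averaged controls and the removal of each array in turn, the rises of Gata3, Gata2, Prkar2b and Acsl3 kept their call in both comparisons against control. In no.1 against control the rises of Klf5, Gk, Mogat2, Spast, Med1 and Acadm and the fall of Fgf21 did so as well. In no.2 against control the falls of Klf2 and Mgll did. Every other named list call against control was lost or turned sign in some of these settings, and unnamed genes were not followed. With spike-in scaling 82.3% of all tested genes were called higher in no.1 against control and 65.5% in no.2. The shares called lower were 1.83% and 2.29%. A rise that kept its call on that scale thus says little. Relative to the spike-ins the medians of all 7 lists lay above 0 in all 3 comparisons, as did the median of all genes.

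**Figure D4:**
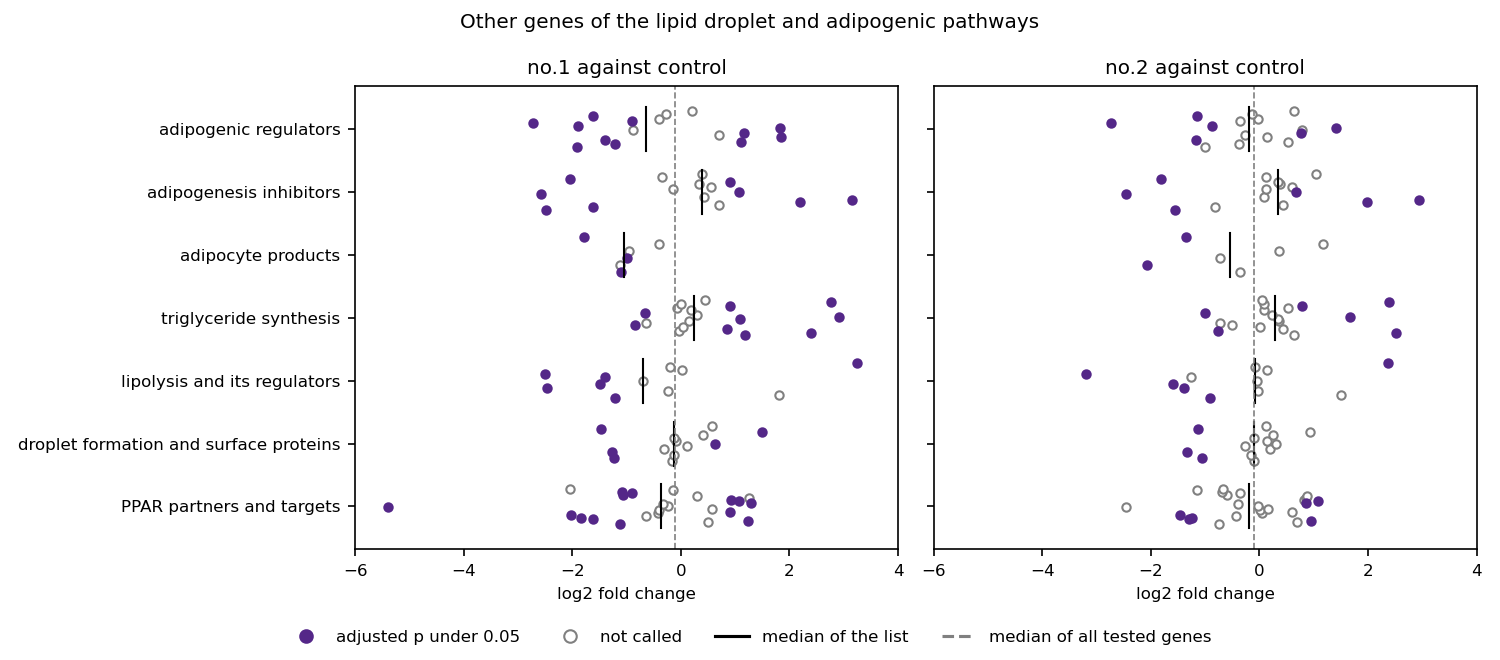
Log2 fold changes against control (75th percentile scaling) of the tested genes in 7 lists, for no.1 on the left and no.2 on the right, filled where the adjusted p was under 0.05, with a line at each list's median and a dashed line at the median of all tested genes. Rises and falls stand side by side in most lists, and the gene at -5.39 is Fgf21.

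The labelled cell type was checked against its markers. Of 12 fibroblast markers 11 were well above background on every array, and Lum on none. Their summed scaled signal was 2224 to 2273 in no.1, 2448 to 2820 in no.2 and 5044 to 5344 in control. All marker sums and calls here are on scaled levels and carry the scale differences between arrays. Sums before scaling or relative to the spike-ins are not given. S100a4 made up 48.9% and 49% of the sum in no.1, 51.3% and 38.7% in no.2, and 70.5% and 71.1% in control, and without it the sums were 1136 to 1158 in no.1, 1374 to 1500 in no.2 and 1486 to 1546 in control. Of the 11 markers tested, 1 rose and 6 fell in no.1 against control, where 47.8% of all tested genes were called. In no.2 against control 1 rose and 4 fell, where 28.3% of all tested genes were called. The riser was Fn1 (1.22 in no.1, 1.27 in no.2). Dcn (-3.73), Thy1 (-2.22) and Pdgfrb (-2.14) were among those that fell in no.1, while Vim, Col1a1 and Col1a2 were called in neither. Before scaling, Col1a1, Col1a2, Vim, Fn1 and Fbln1 read higher on both no.1 arrays than on either control array. Dcn, Thy1, Pdgfrb and S100a4 read lower on both, and Col3a1 and Pdgfra overlapped with control. Of 7 fat cell markers, Adipoq, Cfd and Cidec were well above background on no array, and the summed scaled signal of all 7 was 0.588 to 0.685 in no.1, 0.824 to 0.887 in no.2 and 0.960 to 1.48 in control, with 2 to 4 of them above background in no.1 and 2 in each other group. Of 10 macrophage markers 4 were above background on every array and 6, Adgre1, Ptprc, Lyz2, Fcgr1, Tyrobp and Mrc1, on none, with sums of 28.8 to 32.8 in no.1, 30.0 to 36.9 in no.2 and 46.1 to 49.1 in control. Of 8 endothelial markers 3 were above background in no.1, 2 to 3 in no.2 and 0 to 2 in control, never Cdh5, Tie1, Emcn or Cldn5, with sums of 1.19 to 1.24 in no.1, 1.01 to 1.14 in no.2 and 0.488 to 0.738 in control. Of 8 keratinocyte markers 2 were above background on every array, with sums of 9.72 to 10.3 in no.1, 10.0 to 11.6 in no.2 and 11.1 to 11.6 in control, and of 9 skeletal muscle markers 3 to 4, with sums of 12.9 to 21.6 in no.1, 15.5 to 19.4 in no.2 and 16.8 to 18.1 in control. The part of these differences in the members' values was not tested, and in bulk RNA fewer cells of a type and less RNA per cell cannot be told apart.

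By the distance between centred scaled profiles over the 6 arrays, the named genes most like Pparg were Lyar (0.18), Ddias (0.27) and Lsm6 (0.30). Those most like Cebpa were Cys1 (0.19), Lcn2 (0.53) and Mill2 (0.54), though 3 of the 6 Cebpa values are not well above background. Fabp4 lay nearest to Lhpp, Chmp2a and Bscl2 (0.12 to 0.15), Plin2 to Rbpms, Prss12 and Tns1 (0.13 each), and Plin3 to Rac3, Acaa1a and Ccdc103 (0.12 to 0.21). Plin4, with its 1 low array, lay nearest to Ccrl2, Trem2 and Oas1f (0.38 to 0.68), and Plin5 to Ahdc1, Rpp25 and Pth2 (0.30 to 0.38). Dgat1 lay nearest to Vps52, Akt1s1 and Yif1a (0.086 to 0.12), and Dgat2 to Ube2g2, Adam15 and Cblc (0.075 to 0.18). Of these genes, Bscl2 is the one that also stood in a pathway list.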

How the data were processed

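Per the labels, total RNA of 6 cultures or samples of fibroblasts was amplified with a low-input kit, labelled with Cy3 and hybridised to 1-colour Agilent arrays. The deposited intensity values come, per the file headers, from Agilent Feature Extraction 12.1.1.1 (9.5.1.1 per the submitters' processing notes), and the processed signal is background-subtracted and not normalized between arrays. The series' deposited value table held the same intensity values after quantile normalization, within 1% for at least 99.9% of probes, with a column median of 5.16. No column was without a sample (0).

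Probes were named by accession through a RefSeq table of GRCm38.p6, used for names and neighbours only because the headers name build mm9. Levels are log2 of the processed signal minus log2 of the array's 75th percentile over 56605 non-control probes. A gene is its probe of highest mean. Tests used limma 3.58.1 (R version 4.3.3, data.table version 1.17.8) on all 6 arrays, with 3 residual degrees of freedom and Benjamini-Hochberg adjustment over 23058 genes at 0.05. The fit was tested on simulated data. The number of arrays limits the precision. A bound ("at least") compares the bright group's mean with a floor for the dim group, which per array is the dimmest signal still well above background, or the probe's own if that is higher. Bounds were taken after 75th percentile scaling and need not hold relative to the spike-ins or under other processing. The members and all lists were chosen with earlier results of these data known. Named were all members, Plod2, up to 3 called genes of lowest p in each direction per list and comparison (or the 1 of lowest p where none was called), and the 3 genes of nearest profile; Lpl, which lies outside that rule, was chosen after its values were seen. All arrays lay on 1 slide, the control arrays in row 1 and the others in row 2, with no.1 in columns 1 and 2 and no.2 in columns 3 and 4, so slide position and group cannot be told apart. Alternatives were 19 settings of scaling, background, filter, probe choice, samples and spread model.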

Additional observations from a re-analysis of the deposited data

How the results depend on the processing

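The members called in no.1 against control numbered 8, and 4 with spike-in scaling, and between 6 and 8 when 1 array was left out. In no.2 against control the count of 5 became 3 with median scaling, 2 with spike-in scaling, 1 with the control arrays averaged, and 1 to 5 when 1 array was left out, with 3 without no.2 replicate 1 or 2 and 1 without control replicate 1 or 2. In no.1 against no.2 the count of 0 became 1 (Plin5) with no filter on dim probes. Signs turned mainly with spike-in scaling. In no.1 against control the log2 fold changes were then 0.67 for Dgat1, 0.097 for Dgat2, 0.62 for Fabp4, 0.38 for Plin2, 0.27 for Plin3 and 1.27 for Plin5. In no.1 against no.2 they were 0.21 for Dgat1, 0.44 for Dgat2, 0.37 for Fabp4 and 0.32 for Plin2. In no.2 against control they were 0.46 for Dgat1, 0.25 for Fabp4, 0.056 for Plin2, 0.51 for Plin3 and 0.17 for Plin4. Plin5 in no.2 against control turned to -0.20 with normexp and -0.36 with the mean of its probes, and Pparg there ranged from -0.0066 to 0.47 when 1 array was left out (-0.0066 without no.2 replicate 1). The cause was not tested.

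Of the member values under alternatives, 144 kept direction and side of the threshold in no.1 against control, 6 turned sign, 14 lost a call and 5 gained one. In no.2 against control 130 kept both, 8 turned sign, 24 lost a call and 7 gained one. In no.1 against no.2 164 kept both, 4 turned sign and 1 gained a call. No member was called there, so keeping the side meant staying uncalled. Deviations from the group means of arrays with the same replicate number correlated at 0.16, -0.035 and -0.017 between groups. These correlations cannot show whether such arrays were paired. With the replicate block the member counts stayed at 8, 0 and 5, Plin5 lost its call in no.1 against control (adjusted p = 0.0549) and Plin4 gained one (adjusted p = 0.0451). Over all genes, the 11020 called in no.1 against control became 19388 with spike-ins (18966 higher), 24872 with no filter, 4845 with control averaged, 5385 and 4998 without control replicate 1 or 2, and 5833 without no.1 replicate 1. The 6517 called in no.2 against control became 15641, 16476, 1246, 1710 and 1298 under the first 5 of these, and 3010 without no.2 replicate 2. The 0 between no.1 and no.2 became 8296 with no filter and 117 without no.1 replicate 2. Median scaling called 7564 higher and 3295 lower in no.1 against control, where the 75th percentile called 4940 higher and 6080 lower. Normexp on the mean spot signal was not run, and the median spot signal with an offset of 50 was used in its place, a choice made after seeing the data. A group left with 1 array was assumed to vary like the others. Cebpa, Plin1 and Plin5 are limited by signal over background.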
